A study of Homo sapiens and Mus musculus with 8 samples.

Results

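The 10 genes described here encode cation channels of the TRP, Piezo and P2X families: Trpc1, Trpm1, Trpm4, Trpm7, Mcoln1, Mcoln3, Piezo1, Piezo2, P2rx4 and P2rx5. They were looked up by symbol, regardless of letter case, in 5 tables of comparisons, and 9 of the 10 had a row in at least 1 table, out of 16096 symbols in all. Piezo1 had no row in the tables used here and was not analysed. RNA-seq had been done on 8 samples of 3 melanoma lines, with 1 sample per group. The mouse line B16N was wild type and untreated (day 0), wild type after 2 or 5 weeks of UV, or an Orai1 overexpressing clone (day 0) that had been transfected with CFP-tagged wild-type Orai1, selected with G418, sorted by fluorescence and grown as a clone, so that the overexpressing group is 1 clone. The human lines WM983 and UACC257 were wild type, untreated (day 0) or UV-exposed (week 2). Time in culture and UV exposure cannot be told apart, and clonal growth, selection and the tag cannot be told apart from Orai1, which had no row used here to check the label of the clone.

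TRP channels let Na+, Ca2+ and in part Mg2+ or Zn2+ into the cytosol from outside the cell or from lysosomes, and open on lipids, Ca2+, ligands or temperature. Piezo channels open when the membrane is stretched, and P2X channels open when extracellular ATP binds. In pigment cells Trpm1 (melastatin) is known as a target of the lineage factor MITF and as a gene lost in many melanomas, and the other channels add Ca2+ entry routes beside the store-operated one that Orai1 forms.

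The values are log2 changes of the authors' deposited tables, turned for B16N so that positive means higher in the treated sample, each with the standard error (SE) implied by the deposited test statistic. A gene passed when its p-value, adjusted by the Benjamini-Hochberg method over all rows of its table, was under 0.05. The tables hold no levels or counts, so per-sample values and depth are unknown. No difference has a replicate check, and the p-values compare libraries and not conditions. The SE and the intervals likewise hold no spread between replicates and describe the libraries compared. All 11 melanocytic markers had a row in each B16N table, 10 of them with values of their own, and 9 of these had an SE of at most 0.3. Of 7 fibroblast markers 1 or 2 had a row, none passed, and those with a value of their own had an SE above 2. The 2 or 3 keratinocyte markers with a row (of 6) shared their values with other symbols. Among 6 immune markers, 3 or 4 had a row and the myeloid gene Lyz2 was the one that passed in the authors' deposited tables, with 0.38 (SE 0.94) at 2 weeks, 3.47 (SE 0.70) after 5 and, in the clone, 2.78 (SE 0.64). Of 4 endothelial markers 2 or 3 had a row, each shared with other symbols; Vwf passed at 2 weeks and in the clone with the values of Vegfa.

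Of the 10 channels, none passed after either UV time in B16N, and 2 passed in the Orai1 clone, Trpm7 lower and P2rx5 higher. At 2 weeks 7 channels had a row and 0 passed, where 7.67% of all 14648 rows did (3.13% higher and 4.55% lower). At 5 weeks 8 had a row and 0 passed, where 4.78% of 14821 rows did (3.07% higher and 1.71% lower). No channel reached an unadjusted p under 0.05 at either UV time. In the clone 2 of 8 passed, where 22% of 15041 rows did. Counting only symbols whose values no other symbol shared, 0 of 5, 0 of 5 and 2 of 6 channels passed, beside 8.99%, 5.51% and 25.9% of such rows. The clone's share of channels lies near its background and is no result about the channels as a group. With 7 and 8 rows, 0 passing at the UV times is also close to 7.67% and 4.78%. It is no result about the group either, nor a contrast with the clone. The plot of changes by channel shows the members that had values of their own.

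**Figure D1:**
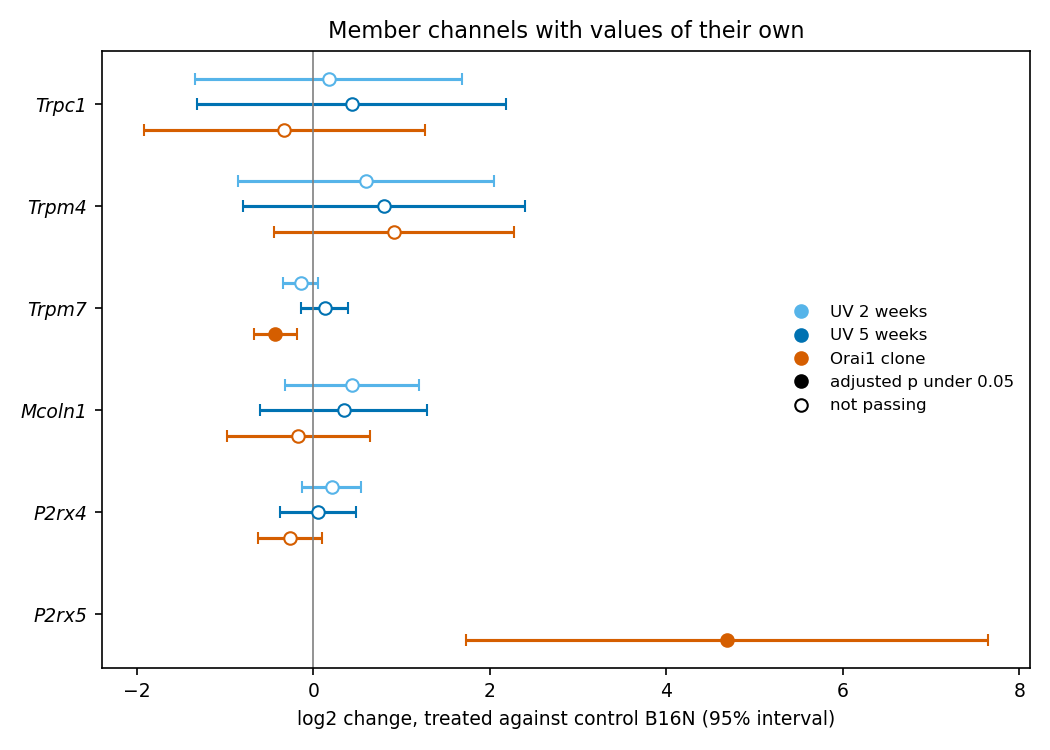
Log2 change against control B16N (horizontal axis) of the member channels whose values no other symbol shared, with 95% intervals from the implied SE, for both UV times and the clone. Filled points passed an adjusted p under 0.05; these are Trpm7 and P2rx5 in the clone, and every other interval crosses 0.

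Trpm7 encodes a ubiquitous channel fused to a protein kinase that conducts Mg2+, Ca2+ and Zn2+. In the authors' deposited tables its log2 change was -0.14 (SE 0.10) after 2 weeks of UV, 0.13 (SE 0.14) after 5 weeks and -0.43 (SE 0.12) in the clone. The clone's change amounts to 0.742 of the control level, with an adjusted p of 0.00365 and a 95% interval from -0.67 to -0.19. In that comparison 11.6% of all rows were called lower. At both UV times the intervals, from -0.34 to 0.06 and from -0.14 to 0.40, leave out a 2-fold change either way between the libraries compared. Trpm7 was the most precisely measured of the channels, with 6.13% to 12% of all rows having a smaller SE. In these bulk samples less RNA per cell cannot be told apart from fewer cells that express a gene.

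The change of Trpm7 in the clone was then set against those after UV. Clone and 5 weeks of UV differed by -0.56 on the log2 scale (SE 0.18, 95% interval -0.92 to -0.20, adjusted p = 0.0424) in a normal test of the difference of the changes in the authors' deposited tables. This was the single difference that passed among 15 tests of 5 channels in 3 pairings, and 6.18% of 10278 symbols passed in the same pairing. From the authors' deposited tables, clone and 2 weeks of UV differed by -0.29 (SE 0.16, adjusted p = 0.288), and 5 and 2 weeks of UV by 0.27 (SE 0.17, adjusted p = 0.597). Of all symbols tested, 13.2% and 3.75% passed in these pairings, and 0 of 5 channels. No other channel reached an unadjusted p under 0.05 in any pairing.

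Trpm4 encodes a channel that Ca2+ opens but that carries Na+ and K+, and so depolarises the cell. Its log2 change in the authors' deposited tables was 0.60 (SE 0.74) at 2 weeks, 0.80 (SE 0.82) at 5 weeks and 0.91 (SE 0.69) in the clone. The adjusted p-values were 0.928, 0.890 and 0.445, and the interval in the clone ran from -0.45 to 2.27. All 3 estimates are positive, but they share 1 control library and each interval holds both 0 and a rise above 2-fold.

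Trpc1 encodes a subunit that joins other TRPC proteins in channels opened downstream of phospholipase C. In B16N its log2 change was 0.17 (SE 0.77) at 2 weeks, 0.44 (SE 0.89) at 5 weeks and -0.33 (SE 0.81) in the clone in the authors' deposited tables. The adjusted p-values were 0.959, 0.965 and 0.917. About 7 in 10 rows (69.3% to 69.8%) had a smaller SE than Trpc1, and its intervals reach past 2-fold on both sides in all 3 comparisons.

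Mcoln1 encodes TRPML1, the channel that releases Ca2+ from lysosomes when the lipid PI(3,5)P2 binds. It stood at 0.44 (SE 0.39) and 0.34 (SE 0.48) after 2 and 5 weeks of UV and at -0.17 (SE 0.41) in the clone in the authors' deposited tables. The adjusted p-values were 0.783, 0.965 and 0.917. Between the libraries compared, the clone's interval, from -0.98 to 0.64, leaves out a 2-fold change. The intervals after UV leave out a 2-fold fall but not a 2-fold rise.

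P2rx4 encodes an ATP-gated channel of the plasma membrane and of lysosomes. Its log2 change was 0.21 (SE 0.17) at 2 weeks, 0.05 (SE 0.22) at 5 weeks and -0.26 (SE 0.18) in the clone in the authors' deposited tables. The adjusted p-values were 0.729, 0.965 and 0.390. The intervals were -0.12 to 0.54, -0.38 to 0.48 and -0.62 to 0.10, so a change of 2-fold between the libraries lies outside each. P2rx4 and Trpm7 are the channels for which the tables bound the difference of libraries this tightly in all 3 comparisons. Without replicates this sets no bound on the effect of UV or of the clone.

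P2rx5, another ATP-gated channel gene, had no row at 2 weeks. Its row at 5 weeks (3.29, SE 2.39, adjusted p = 0.688) held the same values as 7 other symbols in the authors' deposited table. In the clone it had values of its own and passed, with a fitted log2 change of 4.69 (SE 1.51, 95% interval 1.73 to 7.64, adjusted p = 0.0116) in the authors' deposited table, where 10.3% of all rows were called higher. With an SE above 1 the fitted value is given for its direction and not as a fold. The 2-week comparison, where P2rx5 has no row, uses the same control. By the reasoning that set the B16N signs, P2rx5 lay at or near the floor in that control. The call thus rests on detection in 1 clone library, and the levels themselves are unknown. The myeloid marker Lyz2 was, like P2rx5, higher in the clone. The immune markers Cd74 (-0.46, SE 1.81) and Cd68 (-0.61, SE 0.91, values shared with 1 other symbol) were not. Ptprc shared its row there with 743 other symbols. A part of immune cells in the value of P2rx5 was not tested. Of the P2X and P2Y receptor genes P2ry1 also passed in the clone and is named here after its values were seen. It shared its row with 498 and 699 other symbols after 2 and 5 weeks and had its own in the clone in the authors' deposited tables, with a fitted change of 5.13 (SE 1.46, adjusted p = 0.00323).

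The remaining channels had no value of their own in B16N. Trpm1 had a row at 2 weeks alone, with the same values (0.89, SE 4.08) as 498 other symbols, among them Trpc5, Trpv2 and P2ry1, in the authors' deposited table. Mcoln3, the TRPML3 gene, shared its row at 5 weeks (0.97, SE 4.08) with 699 other symbols and its row in the clone (0.40, SE 4.08) with 743, including its relative Mcoln2, in the authors' deposited tables. Piezo2 shared its rows with 124, 450 and 107 other symbols and stood at -1.04 (SE 3.86), -0.95 (SE 4.08) and -1.52 (SE 3.85) at 2 weeks, 5 weeks and in the clone in the authors' deposited tables. The 95% intervals of these rows span at least from -7.03 to 6.03, so they carry no information on direction. Rows with shared values made up 28.9%, 29.3% and 29.1% of the 3 tables. Trpm1, with no row at 5 weeks or in the clone, could not be followed beside the pigment genes. By the reasoning that set the B16N signs, it lay at or near the floor in the shared control, though levels are unknown. Of 11 melanocytic markers 7, 7 and 4 were higher and 0, 2 and 3 lower at 2 weeks, 5 weeks and in the clone. Mitf itself stood at 0.38 (SE 0.51), 0.60 (SE 0.56) and 0.39 (SE 0.49) in the authors' deposited tables.

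**Figure D2:**
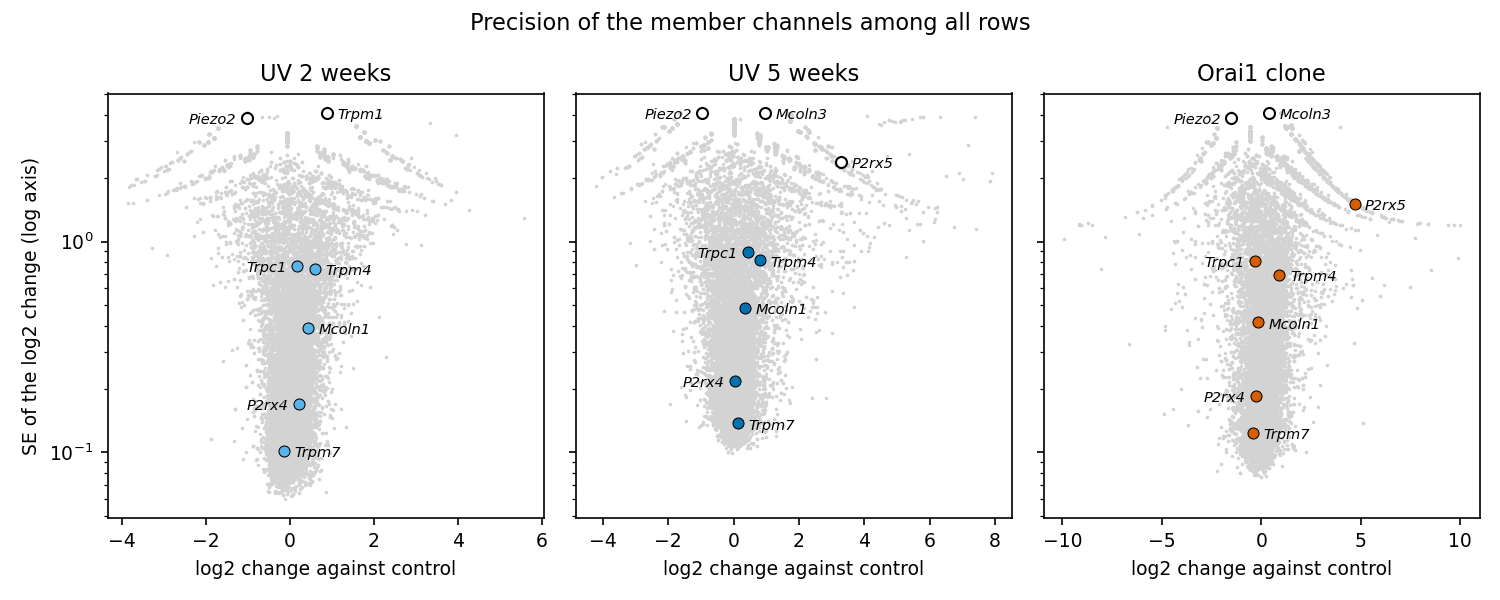
Log2 change against control (horizontal axis) and its SE (vertical, log axis) for all rows of the 3 B16N tables (grey) and the member channels. Filled points have values of their own and open points share theirs with other symbols; Trpm7 and P2rx4 lie among the precise rows, and Piezo2, Trpm1 and Mcoln3 at an SE near 4.08.

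Channels and partners around the members were taken from 6 lists with 108 distinct genes, of which 77 had a row in at least 1 B16N table; the lists share some genes and hold the members. At 2 weeks 4 of 70 genes with a row passed (1 higher, 3 lower), at 5 weeks 5 of 74 (4 higher, 1 lower) and in the clone 15 of 74 (8 higher, 7 lower). These are 5.71%, 6.76% and 20.3% of rows, beside 7.67%, 4.78% and 22% over the whole tables. The same background holds for the small counts of each list below, which are not read as results about a list. Among the passing genes 0, 2 and 3 shared their values with another symbol.

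Of the 29 TRP genes, 19 had a row somewhere and 7 a value of their own in any table, and Trpm7 in the clone was the only one that passed in the 3 comparisons. The median log2 change of those with own values was 0.44, 0.34 and 0.27 at 2 weeks, 5 weeks and in the clone, beside 0.02, 0.01 and 0.03 over all such rows. It rests on 7, 7 and 6 genes, of which 1 had an SE of at most 0.3. Pkd2, the polycystin gene, held the values of Rps6 in all 3 of the authors' deposited tables, and Trpv6 those of Dnajb2, so neither can be read as a channel.

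The list around the Piezo channels had 1 of 10 genes with a row higher at 2 weeks, 1 higher at 5 weeks, and 3 higher with 2 lower in the clone. Over all rows 7.67%, 4.78% and 22% passed at 2 weeks, 5 weeks and in the clone. With 10 genes, 1 of them (Tmc4) with shared values, no enrichment is read from these counts. Kcnk2, the gene of the stretch-activated K+ channel TREK-1, rose by 1.21 at 2 weeks (SE 0.26, adjusted p = 1.40e-04) and fell by 1.57 (SE 0.38, adjusted p = 3.68e-04) in the clone, beside -0.03 (SE 0.41) at 5 weeks, in the authors' deposited tables. From the authors' deposited tables, the changes in the clone and at 2 weeks differed by -2.78 on the log2 scale (SE 0.46, adjusted p = 8.08e-08), while the difference between 5 and 2 weeks did not pass (-1.24, SE 0.48, adjusted p = 0.161). In the clone Tmc6 (0.80, SE 0.18) and Mdfic (0.89, SE 0.34), which encodes an auxiliary subunit of Piezo channels, rose and the osmosensitive channel gene Tmem63b (-0.50, SE 0.16) fell in the authors' deposited table. At 2 and 5 weeks Tmc6 stood at 0.37 (SE 0.17) and 0.39 (SE 0.21), and Mdfic at -0.14 (SE 0.41) and 1.07 (SE 0.45). Tmem63b stood at -0.10 (SE 0.13) and -0.23 (SE 0.17), and none of these UV values passed. For none of these genes did the clone differ from either UV time past the threshold. Tmc4 passed at 5 weeks and in the clone with the values of Lrp1 in the authors' deposited tables, so its rise cannot be assigned to either gene.

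In the list of extracellular nucleotide signalling, 0 of 13 genes with a row passed at 2 weeks and 1 of 16 at 5 weeks. In the clone 4 of 14 did, 2 higher and 2 lower. The shares over all rows were 7.67%, 4.78% and 22% at 2 weeks, 5 weeks and in the clone. Entpd2, an ectonucleotidase gene whose enzyme turns ATP outside the cell into ADP, fell by 1.45 (SE 0.39, adjusted p = 0.00693) at 5 weeks and by 1.11 (SE 0.29, adjusted p = 0.00114) in the clone, with -0.18 (SE 0.25) at 2 weeks, in the authors' deposited tables. From the authors' deposited tables, its changes at 5 and 2 weeks did not differ past the threshold (-1.27, SE 0.46, adjusted p = 0.109). The genes that passed higher in the clone are P2rx5 and P2ry1. P2rx2 was the other lower one, with the values of the scaffold gene Flot1 in all 3 of the authors' deposited tables. P2rx7, another ATP-gated channel gene that is named after its values were seen, stood at 0.54 (SE 0.38), 0.71 (SE 0.42) and 0.85 (SE 0.37) and did not pass (adjusted p = 0.604, 0.510 and 0.0814) in the authors' deposited tables.

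Of 18 genes of endolysosomal ion channels and the PI(3,5)P2 kinase complex, 2 of 14 with a row fell at 2 weeks, 1 of 15 rose at 5 weeks and 1 of 16 fell in the clone. Over all rows 4.55% were lower at 2 weeks, 3.07% higher at 5 weeks and 11.6% lower in the clone. Tpcn1, a two-pore channel gene of endosomes and lysosomes, fell by 0.38 (SE 0.12, adjusted p = 0.0237) at 2 weeks in the authors' deposited table. It stood at -0.21 (SE 0.19) at 5 weeks and -0.28 (SE 0.13) in the clone, which did not pass. Neither differed from the change at 2 weeks past the threshold. Clcn4, a Cl-/H+ exchanger gene, fell by 0.37 (SE 0.11) at 2 weeks and rose by 0.44 (SE 0.14) at 5 weeks in the authors' deposited tables. Its close relative Clcn3 fell by 0.62 (SE 0.13, adjusted p = 2.17e-05) in the clone in the authors' deposited table. At 2 and 5 weeks Clcn3 stood at -0.29 (SE 0.11) and 0.14 (SE 0.14), neither of which passed. The phospholipase C list, of enzymes upstream of TRPC channels, had 9 genes with a row and 0 passing at either UV time, with 0 and 1 at an unadjusted p under 0.05. In the clone 1 passed, Gna11, with the values of Rimbp2 in the authors' deposited table.

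The Mg2+ and divalent cation transport list, which holds Trpm7, had 12 of 13 genes with a row. For its counts too the shares over all rows were 7.67%, 4.78% and 22% at 2 weeks, 5 weeks and in the clone. Mmgt1 is in this list by its name, membrane magnesium transporter 1, and its changes are not read as Mg2+ transport. It fell by 0.36 (SE 0.084, adjusted p = 6.84e-04) at 2 weeks and by 0.91 (SE 0.11, adjusted p = 1.79e-15) in the clone, beside -0.09 (SE 0.15) at 5 weeks, in the authors' deposited tables. From the authors' deposited tables, the clone's change was lower than those at 2 weeks (difference -0.55, SE 0.14, adjusted p = 0.00110) and at 5 weeks (-0.82, SE 0.18, adjusted p = 4.06e-04). Slc41a1, a Na+/Mg2+ exchanger gene, rose by 1.38 (SE 0.33) and Nipa1 by 0.54 (SE 0.17) in the clone, so that 2 genes were higher and 2 lower there in the authors' deposited table. At 2 and 5 weeks Slc41a1 stood at 0.37 (SE 0.39) and 0.46 (SE 0.44), and Nipa1 at 0.11 (SE 0.19) and 0.52 (SE 0.21), none of which passed. In the authors' deposited tables Slc41a2 rose by 2.35 at 5 weeks (SE 0.47, adjusted p = 5.63e-05), beside 0.70 (SE 0.53) at 2 weeks and 1.24 (SE 0.52) in the clone, neither of which passed. Magt1 also passed at 5 weeks (1.36, SE 0.25), but its values were those of the serine synthesis gene Psph in the authors' deposited tables.

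**Figure D3:**
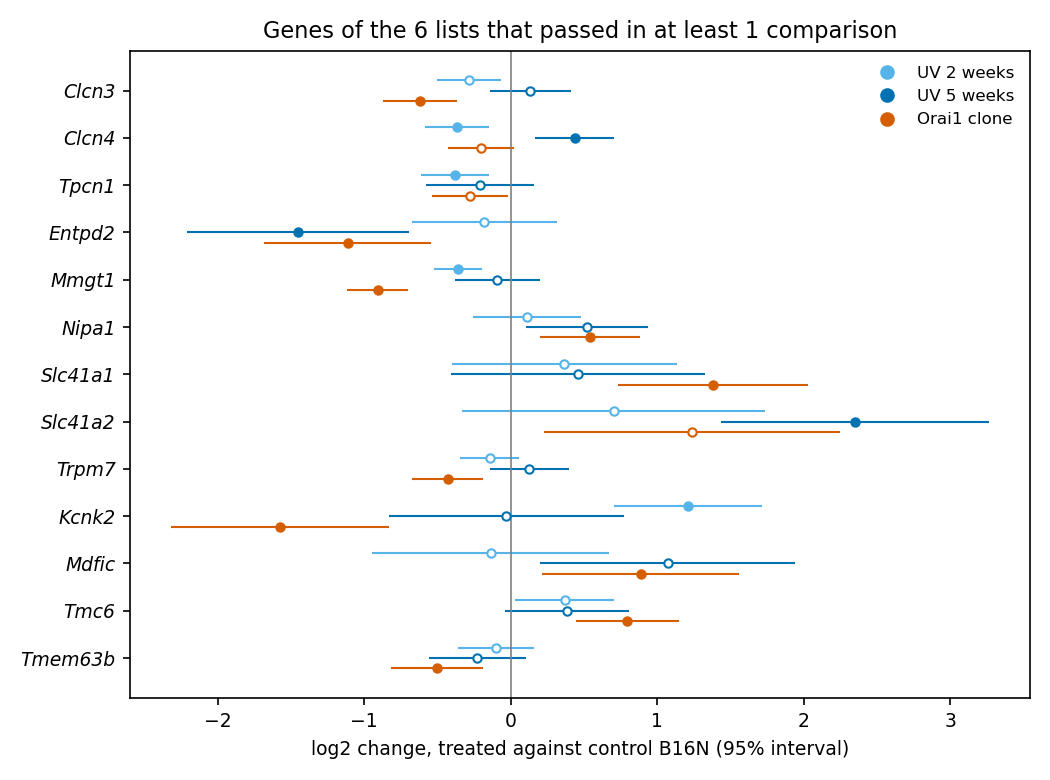
Log2 change against control B16N (horizontal axis, 95% intervals) for the genes of the 6 lists with values of their own and an SE of at most 1 that passed in at least 1 comparison; filled points passed an adjusted p under 0.05. Kcnk2 lies at 1.21 after 2 weeks and -1.57 in the clone, and Mmgt1 is lower at 2 weeks and in the clone.

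In the human lines TRPC1, MCOLN3 and PIEZO2 had a row, each with values of its own. RefSeq promoter windows of GRCh38.p14 (250 bases before to 50 after a gene start) are shown for TRPC1 and MCOLN3. These members stood at 2-fold or more in WM983, as did 419 of 420 listed genes, and had opposite signs as deposited in the 2 lines. MCOLN3 lay near 0 in UACC257, so the choice of windows is no result about these channels. Of the 10 human members 9 matched a window. TRPC1 has 2 listed starts, at chr3:142723784-142724083 and chr3:142733942-142734241 (both plus strand), and MCOLN3 is at chr1:85048451-85048750 (minus strand). Capitals mark the letters CATGTG (core of the M-box that MITF binds; CACATG on the other strand) or CACGTG (the palindromic E-box core), searched on both strands with no overlap between them.
TRPC1, first start: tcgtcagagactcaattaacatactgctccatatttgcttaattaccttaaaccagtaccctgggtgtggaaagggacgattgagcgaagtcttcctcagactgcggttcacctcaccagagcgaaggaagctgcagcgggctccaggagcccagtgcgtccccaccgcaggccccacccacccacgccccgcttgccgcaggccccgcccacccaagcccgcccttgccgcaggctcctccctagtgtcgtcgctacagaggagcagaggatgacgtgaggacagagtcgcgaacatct
TRPC1, second start: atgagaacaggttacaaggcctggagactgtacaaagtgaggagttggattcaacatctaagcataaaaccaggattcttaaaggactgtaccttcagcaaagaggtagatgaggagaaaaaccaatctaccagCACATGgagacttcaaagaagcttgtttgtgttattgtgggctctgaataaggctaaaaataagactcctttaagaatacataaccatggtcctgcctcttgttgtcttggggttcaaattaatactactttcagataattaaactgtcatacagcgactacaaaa
MCOLN3: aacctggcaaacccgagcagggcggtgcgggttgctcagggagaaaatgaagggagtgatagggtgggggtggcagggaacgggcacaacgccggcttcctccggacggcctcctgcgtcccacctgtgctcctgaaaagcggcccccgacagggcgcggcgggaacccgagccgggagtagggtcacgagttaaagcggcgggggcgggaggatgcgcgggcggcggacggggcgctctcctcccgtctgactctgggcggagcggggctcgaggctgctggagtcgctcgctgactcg
The second TRPC1 window holds CACATG once, beginning at position -116 relative to the start, and the other windows shown hold neither motif. Among the 11 windows of the human members, 3 hold CATGTG (the second of TRPC1 and both of TRPM1). A further 2 hold CACGTG (TRPM7 and MCOLN1), and the windows of these other members are not shown. Of all 35116 windows of 300 bases, 11.1% hold CATGTG and 7.26% CACGTG on either strand. The GC content is 60.3% and 38.7% in the TRPC1 windows and 70.3% in that of MCOLN3. A match is a run of letters and no proof of binding.

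Both human tables hold the same 420 genes. In WM983 418 of them (99.5%) passed and 419 stood at 2-fold or more, so that a gene listed there had nearly always changed, and the passing of these 3 channels in WM983 is given as a description. The sign is as deposited, since nothing in the human tables shows which sample is the numerator. In WM983, TRPC1 stood at 1.15, MCOLN3 at -1.03 and PIEZO2 at -2.06 in the authors' deposited table. PIEZO2 ranked 32nd of 420 by size of change, TRPC1 258th and MCOLN3 394th, close to the lower edge of the listed changes. Each had the p-value 5.0e-05, the lowest in the table and common to 351 rows.

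In UACC257, TRPC1 stood at -0.49 (p = 0.0336), PIEZO2 at -0.34 (p = 0.0347) and MCOLN3 at 0.08 (p = 0.629) in the authors' deposited table. After adjustment over the 420 rows the values were 0.393, 0.393 and 0.823, and 0% of the rows passed. At an unadjusted p under 0.05 stood 42 rows (10%), TRPC1 and PIEZO2 among them. As deposited, PIEZO2 had the same sign in both lines, and TRPC1 and MCOLN3 had opposite signs. This compares the lines only if both comparisons have the same numerator, which is not known. MCOLN3 lay near 0 in UACC257, so its sign there carries no information. Of the 420 genes, 218 were positive in WM983 and 175 in UACC257. How many had opposite signs was not counted, so opposite signs are not read as particular to these channels. TRPC1 was the 23rd largest change in UACC257. The difference between the lines was not tested, because the deposited p-values of these tables are not those of the deposited statistic under a normal law (largest gap 0.319 in UACC257) and no SE could be taken from them. Of the other list genes, MDFIC stood at -1.06 in WM983 and -0.12 in UACC257, and PLCG2, a phospholipase C gene, at 1.66 and -0.26 in the authors' deposited tables.

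**Figure D4:**
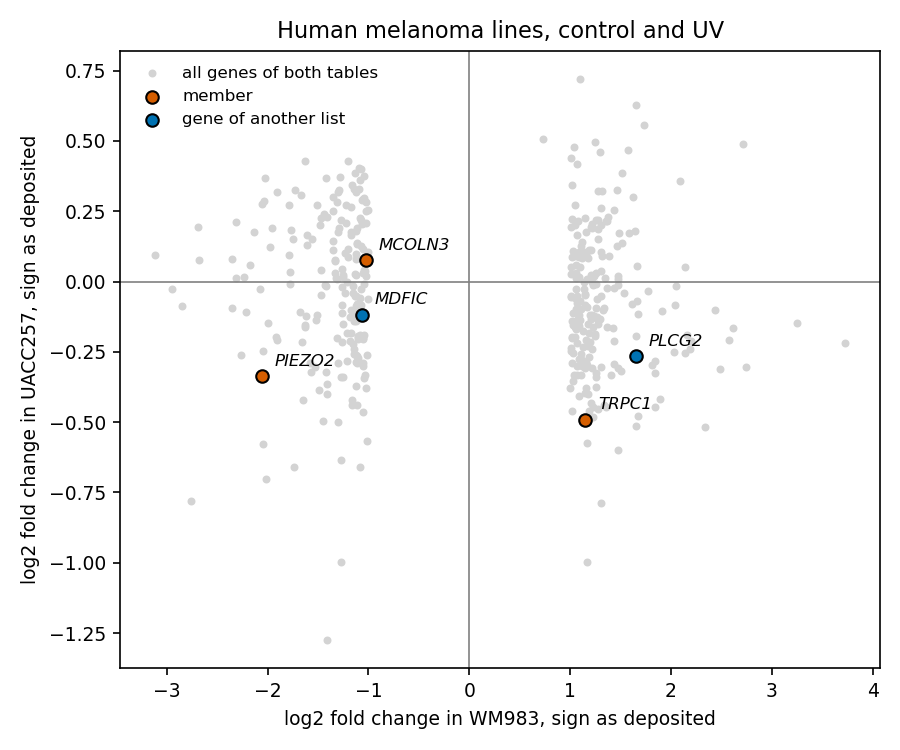
Log2 fold change in WM983 (horizontal axis) and UACC257 (vertical axis), signs as deposited, for the 420 genes of both tables (grey), the 3 member channels (orange) and 2 genes of other lists (blue). TRPC1 lies at 1.15 and -0.49, and PIEZO2 at -2.06 and -0.34; the empty band between -1 and 1 on the horizontal axis, which holds 1 gene, shows that the listed genes all but 1 stood at 2-fold or more in WM983.

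Across species, B16N gives no counterpart to the human values of MCOLN3 and PIEZO2, whose mouse rows shared their values. For Trpc1 the mouse value at the matched time of 2 weeks was 0.17 (SE 0.77) in the authors' deposited table, with an interval from -1.34 to 1.68 that holds the deposited human values of both lines under either sign.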

How the data were processed

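RNA-seq of 8 samples was compared by the authors in 5 deposited tables. Per the file headers, a row gives the log2 fold change between a pair of samples, the statistic of the authors' test (unit: score) and the p-value. The submitters' processing notes name the build GRCm38; what aligned and counted the reads, which test was run and which human build was used are not given in the sources used here. Culture is described for B16N alone in the labels. The human UV samples have UV3 in the title and week 2 as time, and the time label was used.

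B16N signs were turned: of the 1357 symbols in 1 B16N table only, all had a negative deposited value, and such a symbol lacks rows in the tables that share its control. The deposited p-values are the two-sided normal p of the score (largest gap 5.0e-08), so log2 change divided by score gave the SE. Rows without a symbol or p-value were dropped. Benjamini-Hochberg adjustment ran over 14648, 14821 and 15041 rows. Differences between treated samples used a normal test with both SE added in squares, over symbols that shared values with no other symbol in either table; the control cancels and its spread is counted in both SE. Human p-values were adjusted over 420 rows.

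The members and lists were chosen with earlier results of these data known. Named were all members and, per list and comparison, up to 4 passing genes with an SE of at most 1; the rule for genes of like pattern required a member passing in 2 comparisons, which 0 met. Alternatives were a 2-fold minimum, an adjusted p under 0.01, rows of SE at most 0.5, shared values left out, and the median change of rows of SE at most 0.3 set to 0. Procedures were tested on simulated data. Python 3.11.15, numpy 2.4.6, pandas 2.3.3, scipy 1.17.1 and matplotlib 3.10.9 were used.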

Additional observations from a re-analysis of the deposited data

Results flagged for a closer look

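In the authors' deposited tables Clcn4 differed between the UV times: its change at 5 weeks lay 0.81 above that at 2 weeks on the log2 scale (SE 0.18, adjusted p = 5.37e-04), with a fall at 2 weeks and a rise at 5 weeks. It was 1 of 43 list genes tested in this pairing and the only one of them that passed, where 3.75% of all 10166 symbols did. In the human lines 3 genes of the members and lists had opposite signs as deposited, and the difference between the lines was not tested: TRPC1 at 1.15 in WM983 and -0.49 in UACC257, MCOLN3 at -1.03 and 0.076, and PLCG2 at 1.66 and -0.26. Over all 420 genes 218 were positive in WM983 and 175 in UACC257, so opposite signs are not read as particular to these 3.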

How the results depend on the processing

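Of the 2 channels that passed in the clone, 1 was left with a 2-fold minimum (P2rx5), 1 with an adjusted p under 0.01 (Trpm7), and 1 with rows of SE at most 0.5, which leave out P2rx5. The difference of Trpm7 between clone and 5 weeks of UV was lost (0 channels) with a 2-fold minimum and with an adjusted p under 0.01, and its adjusted p ranged from 0.0320 to 0.0483 under the others. Counts of passing list genes went from 4 to 1 at 2 weeks and from 15 to 6 in the clone with a 2-fold minimum, from 4 to 2 and from 5 to 3 at 2 and 5 weeks with an adjusted p under 0.01, and from 5 to 3 at 5 weeks with shared values left out. Setting the median change to 0 altered 0 calls of members and list genes. Channel counts at both UV times were 0 under every alternative run. The lowest adjusted p of a channel in the main result was 0.632 at 2 weeks and 0.688 at 5 weeks. The alternatives could thus hardly add a call, and these 0 counts are no check of robustness. In the tests of differences shared values were kept as the alternative, since the main test leaves them out. No paired analysis was possible because each group had 1 sample. Depth is unknown, and its part in the SE was not tested. At the SE of Trpc1 and Trpm4 (0.69 to 0.89), even a fitted change of 2-fold would not have passed.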
